A study of Xenopus laevis with 8 samples.

Results

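Cadherins, protocadherins, catenins and the proteins that tie them to the actin cytoskeleton were examined in Xenopus laevis (African clawed frog) embryos that had been bisected, with head and tail fragments measured apart. Probe sets were taken where the symbol in the array annotation, without the ending .L or .S, begins with cdh and a digit, pcdh, ctnn, fat1 to fat4, dchs, nectin, afdn, shroom or vcl. This gave 31 of the 15491 probe sets of the array, for 20 genes and 24 gene copies. The endings mark the paired gene copies of this species, L and S, and probes made for either copy may bind both. No probe set was listed under a Fat, Dachsous or afadin gene, and none under pcdh8 itself, so these were not analysed here. The names of 6 of the 31 probe sets, among them the tested probe sets of cdh2.S, pcdh8l.S, ctnnbl1.S and nectin2.L, hold A1 in place of S1, and the sources used here do not say which strand their probes read.

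The embryos were untreated and at stage 18, when the neural plate is rolling into a tube. Heads and tails had 4 arrays each, of which replicates 1 to 3 were single embryos and replicate 4 was a pool of unstated size. Clutches are not given, nor whether equal numbers mark fragments of the same embryo, so p-values cover only the spread between these samples.

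Cadherins are membrane proteins that hold like cells together, in the presence of calcium, by binding the same cadherin on a neighbouring cell. In classical cadherins the cytoplasmic tail binds beta-catenin and p120 catenin, and alpha-catenin links beta-catenin to actin, where vinculin can join it under tension. Vertebrate neural tissue is known to start making N-cadherin and to lose E-cadherin as it separates from the epidermis. Protocadherins adhere more weakly and are known in frogs for sorting mesoderm and ectoderm cells during gastrulation and somite formation.

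Median signals per array were 326.9 to 389.7 intensity units. The first principal component, with 35.7% of the variance, parted all heads from all tails. Of the arrays, tail replicate 1 and head replicate 1 had the lowest weights in limma's estimate of array quality, 0.387 and 0.546, against 0.822 to 3.18 for the others. Most tested markers listed for a fragment were higher in it. The lists were chosen with earlier results of these data known, so they do not test the labels. In heads, 5 of 8 tested neural plate and brain markers and all 4 cement and hatching gland markers were higher. In tails, 6 of 7 tested markers of paraxial and posterior mesoderm were higher. Of all tested probe sets, 2.00% were called higher in heads and 2.61% in tails. Some markers passed the filter described below, at a mean of 7.86, only through their higher fragment. In heads these were sox2.L, astl3a.1.L and pitx1.L (tail means 6.99, 3.94 and 7.23). In tails they were tbxt.S, tbx6.L, mespa.S and myf5.L (head means 7.67, 7.35, 7.64 and 6.95). The other markers called in these neural, gland and mesoderm lists had means above it in both fragments. The counts are thus partly set by the filter.

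Among the cadherin family 1 probe set changed between the tissues past the threshold, that of cadherin-11 (cdh11.S), which was higher in heads. A filter on the mean log2 signal at 7.86, the 40th percentile of the array, kept 21 of the 31 members, which stand for 15 genes. The test was limma's, run across all 9295 probe sets that passed, and a change was called at a Benjamini-Hochberg adjusted p under 0.05. Of the 21 members, 1 was higher in heads, where 2.00% of all tested probe sets were called. No member was higher in tails, where 2.61% of all were called. At an unadjusted p under 0.05 there were 6 members, against 17.5% of all tested probe sets. The median log2 difference of heads minus tails was -0.16 over the 21 members and 0.06 over all 9295 probe sets. The higher mean was in tails for 15 of the 21 and for 4087 of all 9295. Some of the 21 read the same gene, and some of their differences lay near 0.

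**Figure D1:**
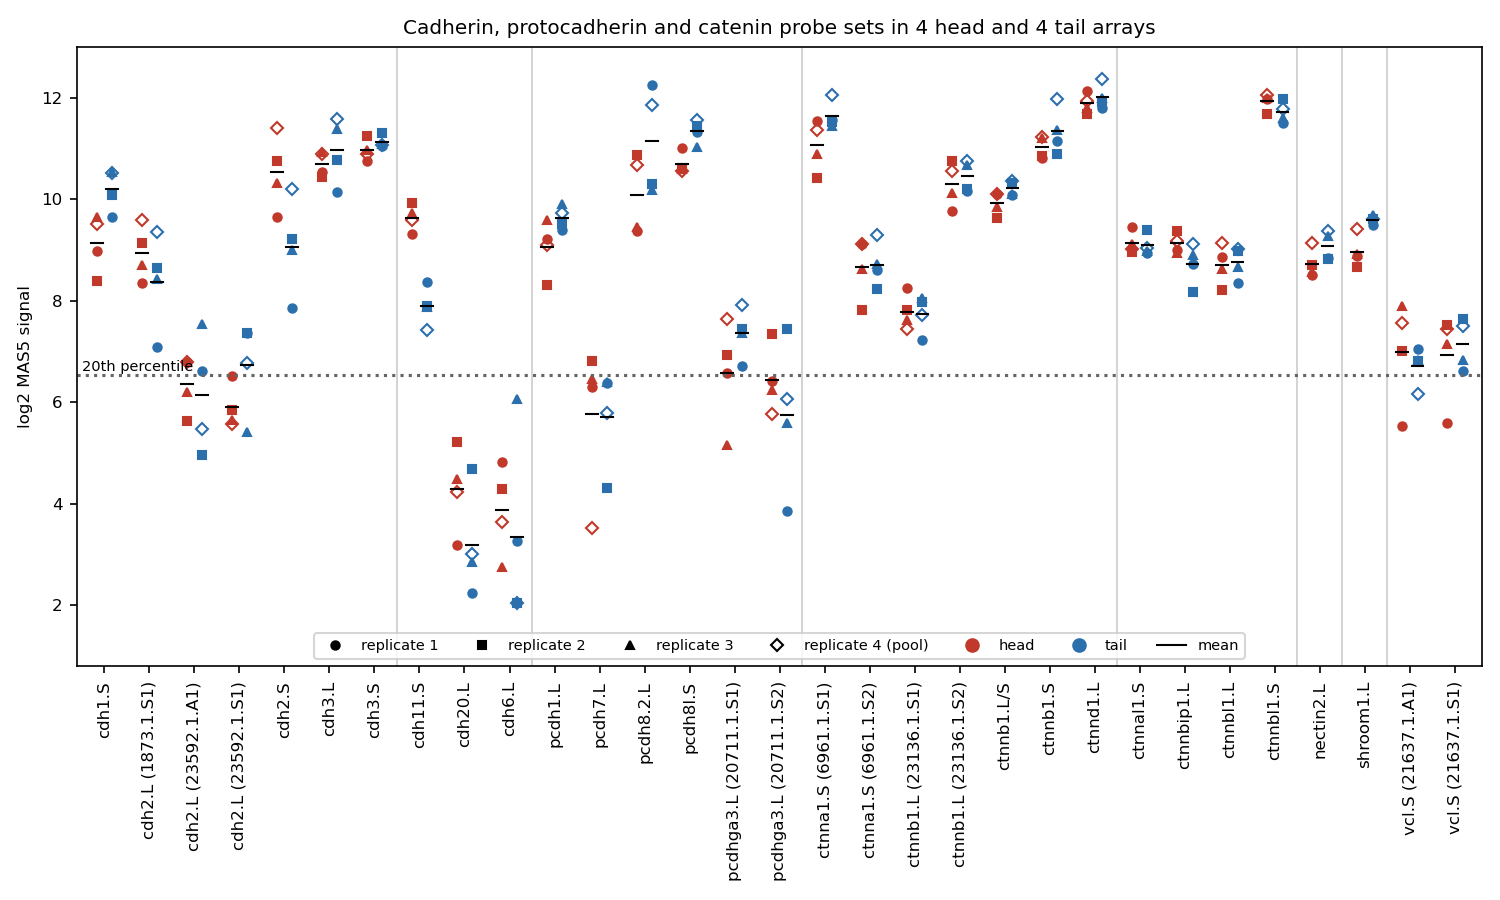
Log2 MAS5 signal of the 31 probe sets, in columns by role, in heads (red) and tails (blue). Each point is 1 array, open diamonds are the pools, black bars are means of 4 arrays, and the dotted line is the 20th percentile of all values, 6.54. The heads of cdh11.S, from 9.31 to 9.93, all lie above its tails, from 7.42 to 8.37.

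Cadherin-11 is a type II classical cadherin known in Xenopus from the migrating cranial neural crest. Its log2 signal was 9.31, 9.93, 9.73 and 9.60 in head replicates 1 to 4 and 8.37, 7.90, 7.88 and 7.42 in the tails. The lowest head lay 0.941 log2 units above the highest tail. The mean was 9.64 ± 0.26 over the heads and 7.89 ± 0.39 over the tails (SD, n = 4 for both), a log2 difference of 1.75 (SE 0.26), or 3.37-fold, with a 95% interval of 2.27-fold to 4.98-fold (limma adjusted p = 0.00223). All tail values lay above the 20th percentile of the array, 6.54, but their mean was close to the filter at 7.86 and the tail pool, at 7.42, lay under it. The log2 difference stayed between 1.59 and 1.91 when any 1 array was left out, and the pools alone differed in the same direction.

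Crest markers are given beside cdh11.S, although they were not the only markers higher in heads. So were 5 of 8 tested neural plate and brain markers and all 4 cement and hatching gland markers, with the limit given above. Of 5 crest markers on the array, the 3 tested were higher in heads, sox10.L (5.60-fold), tfap2b.L (4.38-fold) and sox9.S (3.15-fold). These encode transcription factors of the crest. Over the array, 2.00% of all tested probe sets were called in heads. The tail means of sox10.L and tfap2b.L, 6.64 and 7.67, lay under the filter at 7.86. Their heads carried them past it, so the count of 3 is partly set by the filter. The other two, snai2.S and foxd3.L, were under the filter, with log2 differences of 0.14 and 1.13 (adjusted p = 0.921 and 0.256 with no filter). The summed signal of the 5 ran from 2528 to 3563 units in heads and from 721 to 1534 in tails, and none of them was at 0. The part of crest content in the cdh11.S difference was not tested. In fragments of whole tissue, fewer cells of a type and less RNA per cell cannot be told apart.

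N-cadherin (cdh2) is the type I cadherin of the neural plate and neural tube, and of somites and heart. It was represented by 1 probe set of the S copy and 3 of the L copy. The S copy had log2 signals of 9.65, 10.76, 10.32 and 11.40 in head replicates 1 to 4 and 7.86, 9.22, 9.01 and 10.20 in tails. The tail pool thus lay above the lowest head, and the groups overlapped. Between arrays of equal number, which the labels do not state to be pairs, heads were higher by 1.79, 1.55, 1.31 and 1.20. The mean difference was 1.46 (SE 0.47), or 2.76-fold higher in heads with an interval of 1.36-fold to 5.60-fold, and it missed the threshold (limma adjusted p = 0.118).

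The brightest L probe set of cdh2 had 8.35, 9.13, 8.71 and 9.59 in heads and 7.10, 8.64, 8.44 and 9.36 in tails. Its difference was 0.56 (adjusted p = 0.573, 95% interval -0.38 to 1.51), and it was 0.14 without tail replicate 1 and 0.89 without the tail pool. In both tissues, and for both copies, replicate 1 was the lowest array, followed by replicates 3 and 2, and the pool was the highest. This order was not particular to cdh2, as ptpn1.L and sox3.S had it in both tissues too. The other L probe sets of cdh2 were under the filter at means from 5.90 to 6.73, near or under the 20th percentile. Their differences of -0.83 and 0.21 had opposite signs.

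Pooling was recorded in the labels, and cdh2.S and cdh2.L were the members with the largest difference between pools and single embryos. With tissue in the model the pools were higher by 1.33 for cdh2.S (95% interval 0.49 to 2.17, adjusted p = 0.201) and by 1.08 for cdh2.L (0.21 to 1.96, adjusted p = 0.260). None of the 21 members, and 0 of the 9295 probe sets (0%), differed between pools and single embryos in limma, while 3 members and 1374 of all probe sets had an unadjusted p under 0.05. When pooling was a covariate in the comparison of heads with tails, a setting chosen after seeing the data, cdh2.S had an adjusted p of 0.0260. With 1 pool in each tissue this covariate cannot move the difference itself. Without the tail pool it was 1.84 (adjusted p = 0.0344), and without tail replicate 1 it was 1.06 (adjusted p = 0.278). In single embryos alone, with the pools of both tissues left out, it was 1.55 and missed the threshold (limma adjusted p = 0.0844).

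The copies of cdh2 were then set against each other within each array, with the S copy read by an A1 probe set of unstated strand and the L copy by an S1 probe set. There the log2 ratio of the S to the L probe set was 1.29, 1.64, 1.61 and 1.81 in heads and 0.76, 0.58, 0.57 and 0.84 in tails. All heads lay above all tails, and the ratio had SDs of 0.21 in heads and 0.13 in tails, against 0.74 and 0.96 for the S probe set alone. The ratio was 0.90 higher in heads in an exact two-sided permutation test (p = 0.0286, the smallest that 4 against 4 arrays allow). Over the 4 genes with both copies tested, a comparison chosen after the values were seen, the adjusted p was 0.114. The same ratio was 0.11 higher in heads for cdh3 (exact p = 0.800), 0.25 higher for ctnnbl1 (exact p = 0.200) and differed by -0.17 for ctnnb1 (exact p = 0.571).

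**Figure D2:**
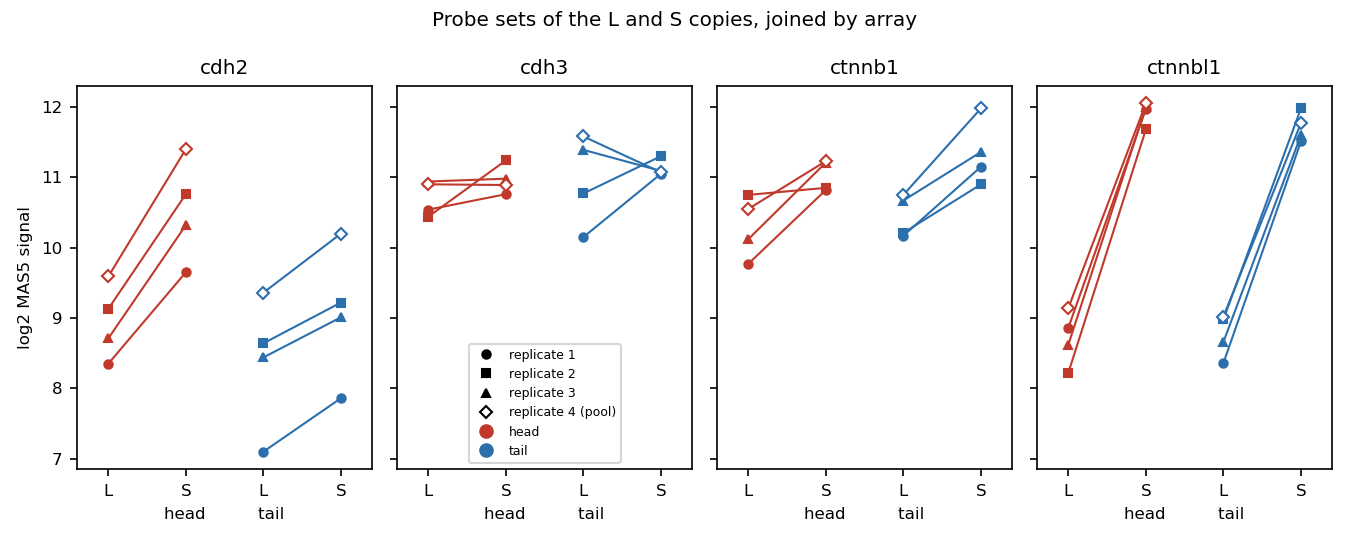
Log2 MAS5 signal of the L and the S probe set of 4 genes, with the points of 1 array joined by a line (heads red, tails blue, pools as open diamonds). For cdh2 the lines of heads are steeper, with S over L ratios of 1.29 to 1.81, than those of tails, from 0.57 to 0.84.

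E-cadherin (cdh1), the type I cadherin of epidermis, had its higher mean in tails but did not pass. The S copy, the copy listed on the array, had 8.99, 8.40, 9.66 and 9.52 in head replicates 1 to 4 and 9.66, 10.09, 10.53 and 10.52 in tails. The groups were parted by a gap of 0.001 log2 units, between head replicate 3 and tail replicate 1. The mean was 9.14 ± 0.58 over the heads and 10.20 ± 0.41 over the tails (SD, n = 4 for both), a difference of -1.06 (SE 0.31, 95% interval -1.74 to -0.38), which missed the threshold (limma adjusted p = 0.0879). Without tail replicate 1 it was -1.24 (adjusted p = 0.0406), and without head replicate 2 it was -0.81 (adjusted p = 0.257).

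Epidermal and endodermal markers are given beside cdh1.S. Of 5 epidermal markers tested, has1.S was 2.44-fold higher in tails and gata3.S was 3.41-fold higher in heads. The test was not passed by the other 3. Over the array, 2.61% of all tested probe sets were called in tails and 2.00% in heads. The tail mean of gata3.S, 7.26, lay under the filter at 7.86, and its head mean was 9.03. Its heads carried it past the filter, so the count of epidermal calls is partly set by the filter. The summed signal of the 6 epidermal markers on the array was 51309 to 58694 units in heads and 67180 to 85404 in tails. Most of this sum came from itln1.L, with log2 means of 15.36 in heads and 15.70 in tails (limma adjusted p = 0.309). The sum therefore does not stand for the list, whose 5 tested markers had a median log2 difference of -0.22. The epidermal factor gene tp63.L had means of 5.90 and 6.02, under the 20th percentile in both tissues. The summed signal of 4 endodermal markers was 10078 to 17151 in heads and 26049 to 37985 in tails. Of the 4, 2 were higher in tails, where 2.61% of all tested probe sets were called. Most of the head sum came from a2m.S, with log2 means of 13.46 in heads and 13.92 in tails (limma adjusted p = 0.274). Much of the rise came from darmin.L, with means of 11.00 and 13.59, so this sum does not stand for its list either. The part of epidermal and endodermal content in the cdh1.S difference was not tested.

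C-cadherin (cdh3), which the frog egg supplies to the early embryo and which many tissues keep, was near level between the fragments. The S copy had 10.76, 11.24, 10.98 and 10.89 in heads and 11.05, 11.30, 11.09 and 11.07 in tails. Its difference was -0.16, with an interval of -0.59 to 0.27, which excludes a change of 2-fold either way (adjusted p = 0.745). The L copy had a difference of -0.27 (-0.93 to 0.40, adjusted p = 0.725), and its tails spread more widely, from 10.15 to 11.58. In the annotation table cdh3.S also carries the older names XB-cadherin, U-cadherin and E-cadherin. In the genome table the S copies of cdh1 and cdh3 lie next to each other, as do the L copies.

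The other type II cadherins were dim. Cadherin-20 (cdh20.L), known in Xenopus as F-cadherin from a part of the neural tube, had 3.19, 5.22, 4.49 and 4.24 in heads and 2.24, 4.68, 2.86 and 3.02 in tails. Cadherin-6 (cdh6.L) had 4.83, 4.29, 2.75 and 3.64 in heads and 3.28, 2.04, 6.06 and 2.04 in tails. All 8 values of both genes lay under the 20th percentile and the tissues overlapped. The intervals of the differences, -0.55 to 2.72 and -1.54 to 2.59, include changes of more than 2-fold.

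Set apart by tissue, the 7 probe sets listed for neural and neural crest cadherins had 3 tested, of which 2 were copies of cdh2. These 3 had the higher mean in heads, as had 5208 of all 9295 tested probe sets. Of the 3, 1 was called, where 2.00% of all were called in heads, and the median log2 difference was 1.46. The list does not hold pcdh8l.S, which is known from crest as well as somites and had the higher mean in tails, with a difference of -0.65. Of 2 epidermal probe sets 1 was tested, cdh1.S. Both mesodermal probe sets were tested, with a median of -0.82 and none called. All 9295 tested probe sets had a median of 0.06. The tested probe sets are few. Under the filter, the 4 neural ones had differences of 1.08, 0.53, 0.21 and -0.83, and the epidermal pcdh7.L had 0.05. All of these were dim, with intervals that include 0.

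**Figure D3:**
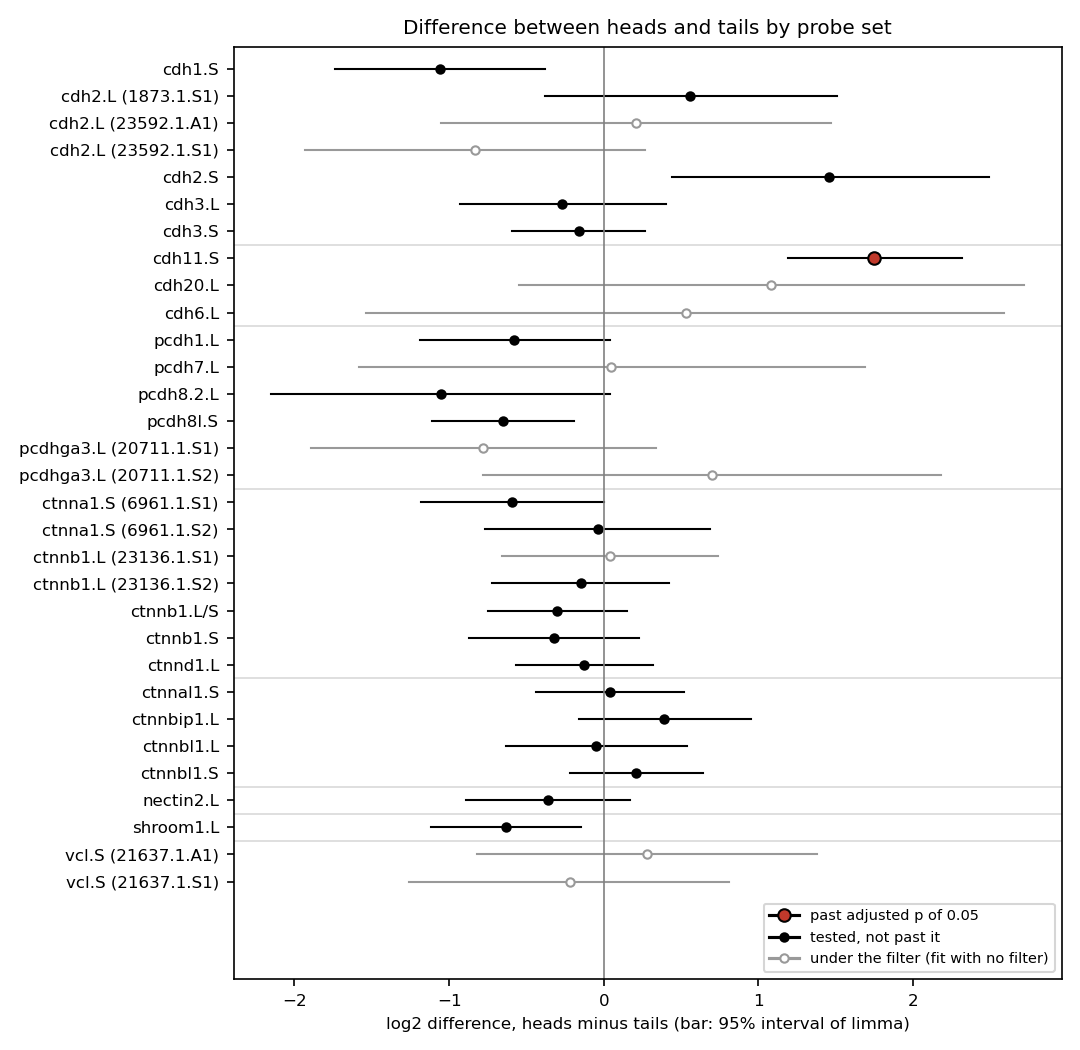
Log2 difference of heads minus tails for the 31 probe sets, with bars for the 95% interval of limma. The red point is cdh11.S, at 1.75 and past the threshold; grey open points are the 10 probe sets under the filter, taken from the fit with no filter. The points of cdh1.S, at -1.06, and cdh2.S, at 1.46, have intervals to 1 side of 0 but did not pass the adjusted threshold. The same holds for pcdh8l.S, at -0.65, shroom1.L, at -0.63, and the brighter probe set of ctnna1.S, at -0.59.

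The 3 tested protocadherins all had higher means in tails, and none passed. The brightest was pcdh8l.S, which the annotation table also names pcns, a protocadherin known in Xenopus from neural crest and somites. Its log2 signal was 11.01, 10.62, 10.59 and 10.55 in heads and 11.33, 11.45, 11.03 and 11.57 in tails. All tails lay above all heads, by a gap of 0.013 log2 units. The difference was -0.65, or 1.57-fold higher in tails, with an interval of -1.11 to -0.19 (adjusted p = 0.121).

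The gene pcdh8.2.L is a neighbour in the genome table of pcdh8.L, the paraxial protocadherin of gastrula mesoderm. It had 9.38, 10.88, 9.45 and 10.67 in heads and 12.25, 10.30, 10.19 and 11.85 in tails. The tails split, with replicate 1 and the pool near 12 and the other two within the range of the heads. The difference was -1.05 (-2.15 to 0.04, adjusted p = 0.308), and it was -0.69 without tail replicate 1. The paraxial and posterior mesoderm markers were far apart in the same arrays, with a summed signal of 1607 to 4059 in heads and 10179 to 13648 in tails.

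The axial protocadherin gene pcdh1.L, known from the frog notochord, had 9.22, 8.31, 9.60 and 9.10 in heads and 9.39, 9.51, 9.91 and 9.74 in tails. The groups overlapped, and the difference of -0.58 (-1.19 to 0.04) did not pass (adjusted p = 0.321). The gene of NF-protocadherin, pcdh7.L, known from the frog's embryonic epidermis and neural folds, was dim, with 6.30, 6.82, 6.46 and 3.52 in heads and 6.38, 4.31, 6.41 and 5.80 in tails. For this gene 7 of 8 arrays lay under the 20th percentile. The 2 probe sets of pcdhga3.L were also under the filter, from 3.86 to 7.92, and had differences of -0.78 and 0.70.

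The catenins were among the brighter members, and none passed. The 6 tested probe sets of alpha-, beta- and delta-catenin had differences from -0.59 to -0.04, all with the higher mean in tails. The p120 catenin gene ctnnd1.L was the brightest of all members, with 12.14, 11.69, 11.79 and 11.94 in heads and 11.80, 11.92, 11.99 and 12.36 in tails. Its difference was -0.13, with an interval of -0.57 to 0.32 (adjusted p = 0.815), so a 2-fold difference lay outside the interval.

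Beta-catenin, which also carries the Wnt signal to the nucleus, had 4 probe sets. The S copy had 10.82, 10.85, 11.21 and 11.23 in heads and 11.15, 10.90, 11.36 and 11.98 in tails, a difference of -0.32 (-0.87 to 0.23, adjusted p = 0.587). The brighter L probe set had a difference of -0.15 (adjusted p = 0.830) and the probe set shared by both copies -0.30 (adjusted p = 0.523). The remaining one, of the L copy, had a mean of 7.77, just under the filter, and a difference of 0.04. For all 3 tested probe sets the interval lay within 2-fold either way, and the tissues overlapped.

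Alpha-catenin (ctnna1.S) gave 2 readings. The brighter probe set had 11.54, 10.42, 10.90 and 11.36 in heads and 11.56, 11.53, 11.44 and 12.06 in tails, with a difference of -0.59 (-1.18 to -0.00, adjusted p = 0.284). The dimmer had a difference of -0.04 (-0.77 to 0.69, adjusted p = 0.966). Both had head replicate 2 as the lowest array, and the tissues overlapped in both.

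Genes named for binding or likeness to catenins had differences from -0.05 to 0.39, and none of 4 probe sets passed. The brightest was ctnnbl1.S, whose product is a nuclear protein linked to splicing, with 11.97, 11.68, 12.00 and 12.05 in heads and 11.51, 11.98, 11.60 and 11.77 in tails (difference 0.21, -0.22 to 0.64, adjusted p = 0.655). Its L copy had -0.05 and the alpha-catenin relative ctnnal1.S had 0.04. The inhibitor of beta-catenin binding to TCF, ctnnbip1.L (also named ICAT), had the largest value of these, 0.39 (-0.16 to 0.95, adjusted p = 0.480).

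Shroom proteins act at apical junctions, and some of the family, though not all, are known for apical constriction in the closing neural tube. The Shroom gene on the array was shroom1.L, with 8.88, 8.66, 8.93 and 9.41 in heads and 9.49, 9.61, 9.70 and 9.62 in tails. All tails lay above all heads, by 0.083 log2 units. The difference was -0.63, or 1.55-fold higher in tails (-1.12 to -0.15), and it missed the threshold (adjusted p = 0.153).

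The nectin gene nectin2.L, of an immunoglobulin-type adhesion protein that afadin ties to actin, had 8.50, 8.70, 8.57 and 9.13 in heads and 8.85, 8.83, 9.27 and 9.37 in tails (difference -0.36, -0.89 to 0.17, adjusted p = 0.501). The tissues overlapped through the head pool. Both probe sets of vinculin (vcl.S) were under the filter. The brighter had 5.60, 7.52, 7.15 and 7.44 in heads and 6.62, 7.64, 6.83 and 7.51 in tails, and the differences of the pair were -0.22 and 0.28.

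Counted by overlap, 1 of the 21 tested members, cdh11.S, had all heads above all tails, where 5.95% of all tested probe sets did. With all tails above all heads there were 3, cdh1.S, pcdh8l.S and shroom1.L, where 5.71% of all did, and the gaps of these 3 ran from 0.001 to 0.083 log2 units. For 12 of the 21 members the 95% interval lay within 2-fold in both directions. With no filter 1 of the 31 members was called, again cdh11.S, against 2.93% of all 15491 probe sets, and among the 10 dim members the smallest adjusted p was 0.516.

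**Figure D4:**
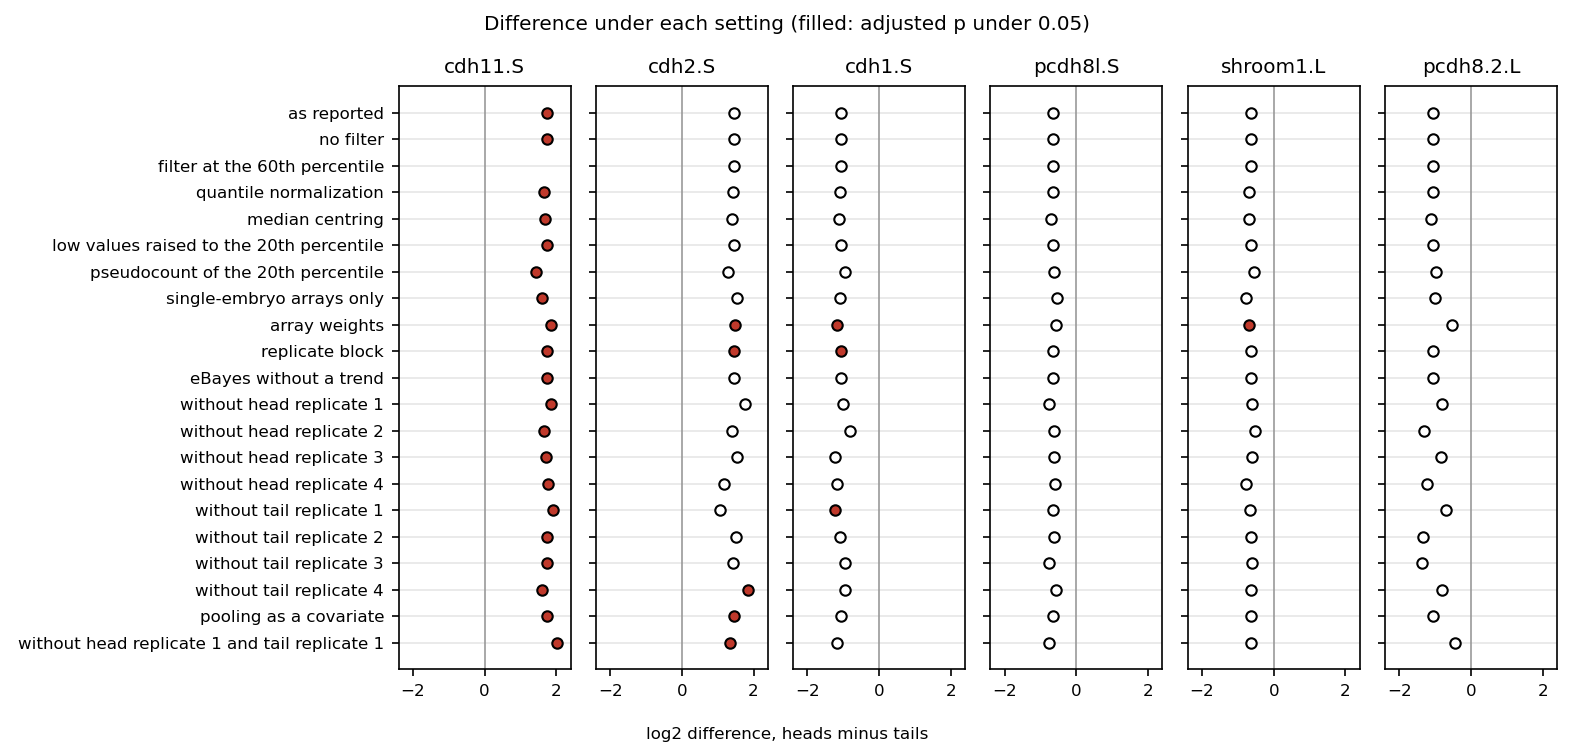
Log2 difference of heads minus tails for 6 members under each setting, with filled points where the adjusted p was under 0.05. The points of cdh11.S are filled under all 20 settings in which it was tested, from 1.43 to 2.02; cdh2.S, cdh1.S and shroom1.L are filled under some settings, and pcdh8l.S and pcdh8.2.L under none.

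Partners and regulators of cadherins outside the family were also compared, from a list of 43 genes of which 33 were on the array and 25 were tested, each by its brightest probe set. Of the 25, 1 was higher in tails, where 2.61% of all tested probe sets were called, and none in heads, where 2.00% were. With every tested probe set of these genes counted, 1 of 39 was called, so the share is near that of the array. The median log2 difference over the 25 was -0.04. The gene that passed was myh9.L, of a non-muscle myosin II heavy chain that contracts the actin belt at junctions. Its log2 signal was 11.54, 11.11, 12.19 and 12.11 in heads and 12.59, 12.77, 12.73 and 12.89 in tails. All tails lay above all heads, and the difference was -1.01 (SE 0.25), or 2.01-fold higher in tails (limma adjusted p = 0.0406). This call needed most of the arrays. Leaving out head replicate 1 or 2 raised the adjusted p to 0.0784 or 0.114, and leaving out tail replicate 2, 3 or 4 raised it to 0.103, 0.119 or 0.0872.

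The actin-binding genes lima1.L and actn4.S had differences of -0.70 and -0.60 without overlap between the tissues (limma adjusted p = 0.0928 and 0.139). Over the array, 5.71% of all tested probe sets had all tails above all heads. Other genes of the list for actin-linked proteins overlapped, actn1.S (-0.03), vasp.L (-0.39), enah.S (0.14) and zyx.S (0.32). Plakoglobin (jup.S), a close relative of beta-catenin, was among the brightest genes of the list at 14.45 ± 0.26 over the heads and 14.64 ± 0.17 over the tails (SD, n = 4 for both), with a difference of -0.19 (adjusted p = 0.654). The repressor gene snai1.S, whose product is known to lower E-cadherin, had a difference of 1.15 with a wide spread, 8.56 ± 0.80 against 7.41 ± 1.67 (SD, n = 4 each, limma adjusted p = 0.446). Tail replicate 1 was far the lowest array for this gene, at 5.15. The other tails, from 7.37 to 9.13, overlapped the heads, from 7.85 to 9.38. The neural adhesion gene ncam1.S had 0.83 (adjusted p = 0.239).

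**Figure D5:**
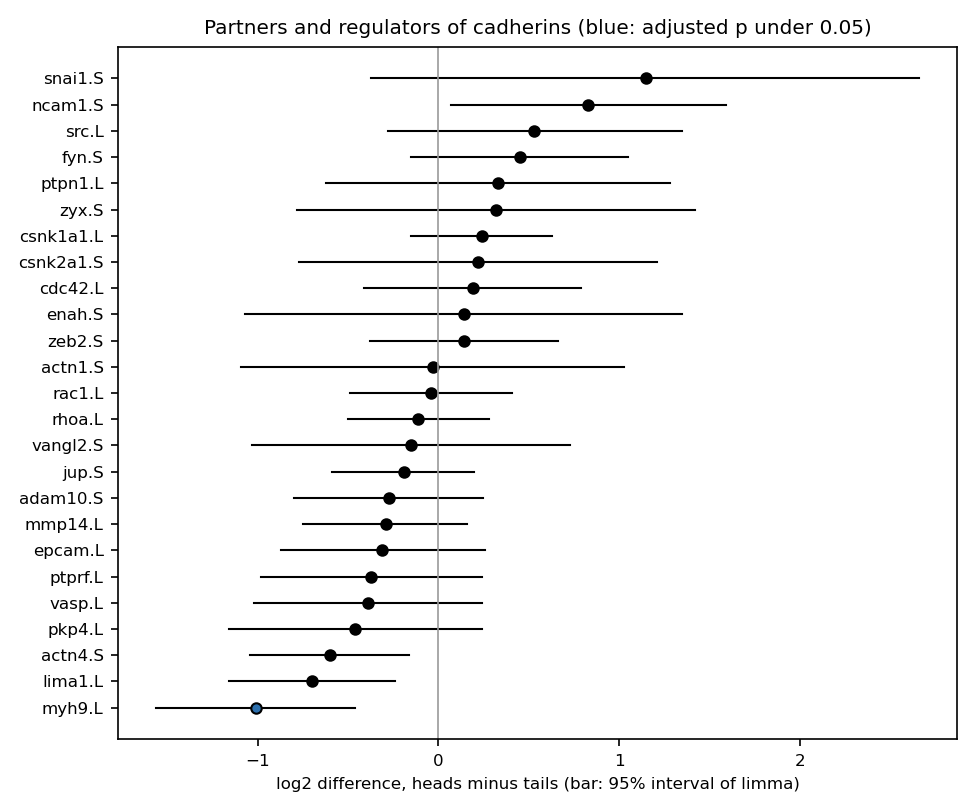
Log2 difference of heads minus tails for the 25 tested partner and regulator genes, with bars for the 95% interval of limma. The blue point, myh9.L at -1.01, passed the adjusted threshold, and the others ran from -0.70 to 1.15.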

How the data were processed

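The authors deposited linear intensity values, 1 for each probe set and array. Per the submitters' processing notes these are MAS5 signals, and no version is named. The mean of each array without its lowest and highest 2% was 1000, which shows a common scaling by the authors. The table used here holds no detection calls, so background could not be examined. The 120 control probe sets were dropped. Symbols are those of the array annotation, and all 32 member gene identifiers matched a RefSeq table of the assembly Xenopus_laevis_v10.1 with no symbol changed. Genome positions are not printed, because the array comes with no build.

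Signals were put on the log2 scale with a floor of 1, which no signal reached. The 2 tissues were compared two-sided in R 4.3.3 with limma 3.58.1 (lmFit, then eBayes with a trend on intensity), with no covariate, on all 8 arrays and 9295 probe sets with a mean at or above the 40th percentile. Errors are SDs over 4 arrays and intervals are 95% intervals of limma. Negative differences mean higher in tails. The number of arrays limits the precision. Simulated data with the spreads of these 9295 probe sets gave 33 of 100 changes of 1 log2 unit and 91 of 100 of 2 units. The simulated arrays were independent and of equal quality, and few probe sets were changed, so these rates may not hold for the real arrays.

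Values by array are given for members past the threshold, for the brightest probe set of each role, for the brightest of each neural, epidermal or mesodermal cadherin gene, for myh9.L as the partner gene past the threshold, and for cdh2.L, ctnna1.S and ctnnb1.S. The last 3, and the partner genes lima1.L, actn4.S, actn1.S, vasp.L, enah.S, zyx.S, jup.S, snai1.S and ncam1.S, were chosen after their values were seen. Members and lists were chosen with earlier results of these data known.

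Alternatives were other filters, scalings, floors and eBayes settings, array weights, single embryos alone, the replicate number as a block, and each array left out. Pooling as a covariate and leaving out replicate 1 of both tissues were added after seeing the data. Head and tail arrays of the same number had correlations of their deviations from the group mean of 0.226, 0.0342, 0.0181 and 0.596. The highest, 0.596, was between the head pool and the tail pool. Arrays of unlike number had -0.536 to 0.176. These values do not settle whether equal numbers are pairs. The labels do not state pairs, so the numbers were not taken as such.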

Additional observations from a re-analysis of the deposited data

Results flagged for a closer look

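In each tissue of 4 arrays, the highest and the lowest value of every member and of myh9.L were set against the others by Dixon's criterion. Of 64 groups 3 stood out, and chance gives about 1 in 20. For pcdh7.L the head pool had 3.52, against 6.30 to 6.82 in the single heads, all dim values. For pcdh8l.S head replicate 1 had 11.01, against 10.55 to 10.62 in the other heads, and it lay just under the lowest tail. For cdh3.S tail replicate 2 had 11.30, against 11.05 to 11.09 in the other tails.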

How the results depend on the processing

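The call of cdh11.S held under all 20 settings that tested it (log2 difference 1.43 to 2.02, adjusted p 0.000121 to 0.0176). It fell under the filter at the 60th percentile, which left 15 members tested and 0 called in heads. The count of members higher in heads was 2 with array weights, with the replicate block, with pooling as a covariate and without replicate 1 of both tissues, and 1 to 2 when arrays were left out. The second was cdh2.S each time (adjusted p = 0.0163, 0.00308, 0.0260 and 0.0461). The count higher in tails was 2 with array weights (cdh1.S, adjusted p = 0.0167, and shroom1.L, 0.0395), 1 with the replicate block (cdh1.S, 0.0230) and 0 to 1 when arrays were left out.

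Over all probe sets, 186 were higher in heads and 243 in tails. Heads gave 100 with the filter at the 60th percentile, 97 in single embryos, 618 with array weights, 290 with the replicate block and 96 to 287 with arrays left out. Tails gave 114 in single embryos, 605 with array weights and 112 to 396 with arrays left out. Sign changes were confined, among the members tested, to 4 near 0 that never passed. For ctnnal1.S the difference was -0.02 with quantile normalization, -0.03 with median centring and -0.11 to 0.14 with arrays left out. It was -0.23 to 0.12 for ctnnbl1.L and -0.30 to 0.03 for ctnnb1.L with arrays left out. The dimmer ctnna1.S probe set had 0.00 in single embryos and -0.23 to 0.24 with arrays left out. The call of myh9.L was also lost in single embryos (adjusted p = 0.0916), with eBayes without a trend (0.0531) and without replicate 1 of both tissues (0.0600). The cause was not tested for any of these. Dim members, at or under the 20th percentile, are limited by signal.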
